A study of Mus musculus with 76 samples.

Results

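The 10 genes followed here mark or act in the endothelium of the liver and were chosen by name: Kdr, Flt4, Tek, Tie1, Pecam1, Cdh5, Stab1, Stab2, Lyve1 and Sox17. They are 10 of the 49585 genes counted in each of 76 RNA-seq libraries from mouse fetal liver of the C57BL/6NJ strain at embryonic day 14.5. The series holds a DIS3 line and an EXOSC10 line, named for a nuclease of the RNA exosome, the complex that degrades and trims RNA. In each line, WT and KO livers were sampled as total liver and as 5 fractions sorted on CD71 and Ter119 (S0, S1, S2, S3 and S4+S5, ordered from immature to mature erythroid cells), to find genes and non-coding RNAs that depend on each enzyme as red cells mature. The labels give the genotypes as WT, dis3 KO and exs10 KO. The kind of allele, the cells in which it is deleted and whether libraries of a group came from separate embryos are not given in the sources used here, so p-values reflect no more than the scatter among these samples, which may be technical.

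Liver endothelial cells line the vessels and the sinusoids, the leaky capillaries in which blood-forming cells of the fetal liver lodge. KDR and FLT4 are receptors for vascular endothelial growth factors, and TEK and TIE1 form the receptor system of the angiopoietins. CDH5 (VE-cadherin) and PECAM1 hold endothelial cells together at their junctions. STAB1 and STAB2 are scavenger receptors of the sinusoids, LYVE1 binds hyaluronan, and SOX17 is a transcription factor of arterial and fetal endothelium. Several of these genes are not restricted to endothelium: Tek, Tie1 and Pecam1 are also used by blood stem cells and megakaryocytes, and Stab1 and Lyve1 also by macrophages.

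Promoter sequences are shown for Tek, Kdr and Stab1, which carry the main results below, as the 250 bases before the start of each gene. They come from RefSeq on GRCm38.p6, where 6 of the 10 genes had a matching window. Each is printed 5′ to 3′ on the strand of its gene, with capitals at GGAA or its complement TTCC, the core letters of sites for ETS factors, which are widely used in endothelial genes. The Tek window is chr4:94739039-94739288 on the plus strand, the Kdr window chr5:75978456-75978705 on the minus strand and the Stab1 window chr14:31168642-31168891 on the minus strand.
Tek: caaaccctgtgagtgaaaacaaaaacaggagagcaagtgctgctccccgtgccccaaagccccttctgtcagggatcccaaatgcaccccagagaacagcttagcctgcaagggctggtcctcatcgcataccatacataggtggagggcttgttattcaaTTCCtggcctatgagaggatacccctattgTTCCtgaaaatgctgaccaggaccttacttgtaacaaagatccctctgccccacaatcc
Kdr: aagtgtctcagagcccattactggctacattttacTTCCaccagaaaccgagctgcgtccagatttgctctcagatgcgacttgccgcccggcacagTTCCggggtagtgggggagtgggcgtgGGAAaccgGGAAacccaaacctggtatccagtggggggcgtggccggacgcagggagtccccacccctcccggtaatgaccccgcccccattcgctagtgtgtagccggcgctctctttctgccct
Stab1: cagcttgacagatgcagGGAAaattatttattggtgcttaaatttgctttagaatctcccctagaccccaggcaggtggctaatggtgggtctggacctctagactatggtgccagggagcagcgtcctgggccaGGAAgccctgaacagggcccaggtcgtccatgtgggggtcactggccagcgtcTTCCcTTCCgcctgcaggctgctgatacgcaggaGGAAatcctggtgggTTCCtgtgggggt
On both strands, GGAA was found 2 times before Tek, 4 times before Kdr and 6 times before Stab1. The median over the 32851 windows of this length was 3, and 76.8%, 33.4% and 8.69% of them held at least as many. GATA, the core letters of GATA factor sites, was found 1 time in each of these windows and at least 1 time in 53.6% of all windows. ACAAT, the core of SOX factor sites, was found 2 times before Tek and in neither of the others, and 6.59% of all windows held at least 2. TGANTCA, the AP-1 site, was found in none of the 3 windows and in 6.75% of all. A match is a description of the letters only.

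The libraries held 4662194 to 30412636 counts each. Libraries of a group that differed by no more than about the sampling noise were added together and taken as a single sample. This gave 52 samples: 4 WT and 2 KO in DIS3 total liver, 3 and 3 in EXOSC10 total liver, and 2 per group in every sorted fraction. Exosc10 was lower in the EXOSC10 KO in all 6 populations (log2 change -1.90 in S0 and -0.60 in total liver, both called). Dis3 was lower in the DIS3 KO in S0 to S3 (log2 change -0.95 in S0) but did not pass in total liver (-0.25, adjusted p 0.245 by edgeR, samples overlapping) or in S4+S5 (-0.68, adjusted p 0.134). RNA from Y-linked genes was present in 3 of the 4 DIS3 WT total liver samples and absent from both KO samples, and in the sorted fractions it was present in every DIS3 WT sample and no DIS3 KO sample. Sex and genotype therefore cannot be told apart in the sorted DIS3 comparisons. A sample counted as holding Y-linked RNA above 10 CPM, which no EXOSC10 sample reached. EXOSC10 KO S0 sample 2-3 stood at 4.24 CPM, against 0 to 0.928 in the other EXOSC10 samples.

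In WT total liver all 10 genes were well covered. Levels are given as CPM, the count of a gene relative to the library size scaled by edgeR's TMM factors, and, to compare genes, as mean CPM per kilobase of exon. Lyve1 was highest in both lines, at 24.7 CPM per kilobase in DIS3 WT (22.6 to 27.4, n = 4) and 21.9 in EXOSC10 WT (20.3 to 24.7, n = 3). Cdh5, Stab2 and Stab1 followed, at 17.9, 16.1 and 15.1 in the DIS3 line and 16.5, 18.7 and 17.6 in the EXOSC10 line, with overlapping ranges between neighbours in that order. Kdr (7.64 and 7.88) and Tie1 (7.25 and 6.28) formed the next pair, then Pecam1 (5.06 and 4.73), Flt4 (4.67 and 4.46) and Tek (3.67 and 3.53). In the DIS3 line Kdr overlapped Tie1 and Pecam1 overlapped Flt4, while Flt4 and Tek did not overlap in either line. Sox17 was lowest in both, at 0.635 and 0.689 CPM per kilobase. The scavenger and hyaluronan receptors and Cdh5 all stood above the growth factor receptors.

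In KO total liver most of these genes took a larger share of the RNA than in WT, in both lines, by up to about the doubling seen for Stab1. In the DIS3 line 9 of 10 rose (edgeR quasi-likelihood test, Benjamini-Hochberg adjusted p under 0.05 over 17553 genes), where 26.5% of all genes tested rose and 24.2% fell, and the median log2 change of the 10 was 0.41 beside 0.03 over all genes. In the other line 8 of 10 rose, where 31.4% of the 16771 genes tested rose and 31.0% fell, with a median of 0.39 beside 0.00. None fell. These comparisons set shares of RNA beside each other: in bulk liver, fewer or more cells of a type and less or more RNA per cell cannot be told apart.

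The VEGF receptors rose in both lines. Kdr (chromosome 5, 75932827 to 75978458, minus strand) stood at 65.7, 69.4, 71.7 and 69.1 CPM in the DIS3 WT samples and 114 and 94.2 in the KO samples. Kdr in the EXOSC10 samples was at 66.1, 77.3 and 70.0 CPM for WT and 107, 99.0 and 115 for KO. Every KO sample was above every WT sample, and the rise was 1.51-fold in each line (log2 0.60 with SE 0.10, adjusted p 0.000128, and 0.59 with SE 0.07, adjusted p 2.27e-05). Flt4 (chromosome 11, 49609263 to 49652739, plus strand), the receptor of VEGF-C, went from 34.4 to 41.0 CPM in DIS3 WT to 55.4 and 49.2 in KO, and from 34.5 to 38.0 in EXOSC10 WT to 60.0, 54.7 and 53.6 in KO. Its rises of 1.37-fold and 1.54-fold were also without overlap.

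The angiopoietin receptors rose as well. Tek (chromosome 4, 94739289 to 94874976, plus strand), the receptor itself, stood at 15.7, 17.4, 18.2 and 17.8 CPM in DIS3 WT and 28.1 and 23.5 in KO, a log2 rise of 0.59 (SE 0.12, adjusted p 0.000846). Tek in the EXOSC10 samples was at 15.0, 19.3 and 15.6 CPM for WT and 19.2, 20.012 and 25.0 for KO, so that 1 KO sample lay within the WT range, and the rise was 1.28-fold (log2 0.36, SE 0.12, adjusted p 0.0176). Tie1 (chromosome 4, 118471191 to 118490061, minus strand), the co-receptor, rose 1.29-fold from 33.7 to 38.2 CPM in DIS3 WT to 46.7 and 44.7 in KO, and 1.52-fold from 26.8 to 35.2 in EXOSC10 WT to 49.5, 41.6 and 49.1 in KO. Neither pair of groups overlapped for Tie1.

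The junction genes were the members that did not pass: Cdh5 in both lines and Pecam1 in the EXOSC10 line. Cdh5 (chromosome 8, 104101625 to 104144511, plus strand) stood at 79.1, 77.8, 80.8 and 63.4 CPM in DIS3 WT and 92.6 and 84.7 in KO, a log2 difference of 0.22 (SE 0.10) that did not pass (adjusted p 0.0845). Its EXOSC10 samples were at 60.0, 78.0 and 69.5 CPM for WT and 67.6, 59.4 and 73.5 for KO, with the groups intermixed (log2 -0.05, SE 0.10, adjusted p 0.647). Pecam1 (chromosome 11, 106654217 to 106750628, minus strand) rose 1.24-fold in the DIS3 line, from 30.3 to 33.4 CPM to 41.0 and 37.7 (adjusted p 0.0156). Its EXOSC10 samples were at 27.7 to 30.4 CPM in WT and 28.5 to 33.7 in KO and did not pass (log2 0.10, SE 0.08, adjusted p 0.294). An annotated antisense gene, Gm29682, overlaps Cdh5.

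Stab1, a scavenger receptor, had the largest change of the 10 in the EXOSC10 line, and in the DIS3 line it came after Sox17. Stab1 (chromosome 14, 31139013 to 31168641, minus strand) stood at 145, 166, 154 and 156 CPM in DIS3 WT and 258 and 220.4 in KO, a 1.54-fold rise (log2 0.62, SE 0.10, adjusted p 9.88e-05). With EXOSC10 it went from 182, 195 and 168 CPM to 382, 365 and 364, a 2.04-fold rise (log2 1.03, SE 0.07, adjusted p 2.61e-07). Both KO groups lay well above their WT samples. Stab2 (chromosome 10, 86841198 to 87008025, minus strand) rose 1.24-fold in the DIS3 line, from 134 to 151 CPM to 193 and 158, and 1.32-fold in the EXOSC10 line, from 156 to 172 CPM to 222, 213 and 214. Lyve1 (chromosome 7, 110850607 to 110863239, minus strand) rose 1.28-fold in the DIS3 line, from 66.1 to 80.0 CPM to 98.8 and 86.3. Its EXOSC10 rise of 0.26 on the log2 scale only just passed (SE 0.11, adjusted p 0.0477), with 59.2 to 72.2 CPM in WT overlapping 66.1 to 89.7 in KO. Nt5dc2 overlaps the 3′ end of Stab1, several antisense genes and pseudogenes overlap Stab2, and the strand setting of the counting is not given in the sources used here, so reads of these pairs may be mixed.

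Sox17 (chromosome 1, 4490931 to 4497354, minus strand, with the predicted gene Gm37587 overlapping its 5′ end), the transcription factor of the group, was low throughout. It stood at 2.71 to 3.28 CPM in DIS3 WT and 5.84 and 3.91 in KO (log2 0.67, SE 0.20, adjusted p 0.0101), and at 2.99 to 3.49 in EXOSC10 WT and 3.96 to 4.52 in KO (log2 0.38, SE 0.15, adjusted p 0.0367). The KO samples were above the WT samples in both lines.

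**Figure D1:**
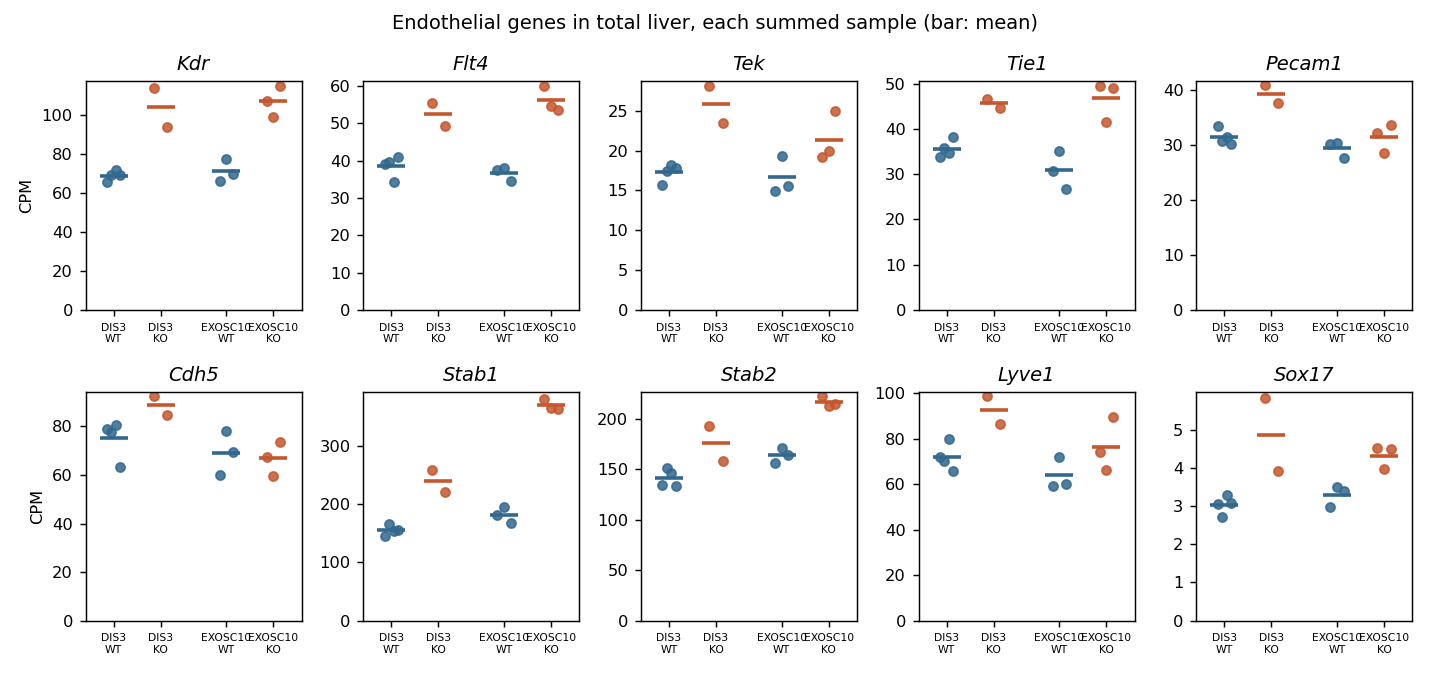
CPM of the 10 genes in total liver (y axis, from 0) for each summed sample of WT (blue) and KO (orange) in the DIS3 and EXOSC10 lines, with bars at group means. KO points lie above WT points for each gene with DIS3 and, except Tek, Pecam1, Cdh5 and Lyve1, with EXOSC10, where Stab1 is furthest apart. How many of all genes lie apart in this way was not counted. These levels are relative to all RNA counted, and the direction of most turns when hepatocyte or stellate cell genes are held level, except Stab1 with EXOSC10 under the hepatocyte scaling, Sox17 with DIS3 under the stellate scaling (about 0) and Cdh5 with EXOSC10, which was below 0 before.

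Part of these rises depended on single samples. Without DIS3 KO sample 1-3 (libraries 1 and 3), the higher of the 2 KO samples, the calls of Pecam1 (log2 0.24), Stab2 (0.15), Lyve1 (0.24) and Sox17 (0.34) were lost. Fewer of all genes were called higher in that fit as well. Stab2 was also lost without WT sample 1 (0.28). With EXOSC10 5 of 10 were called without WT sample 1, WT sample 3-4 or KO sample 3, where Tek (0.29, 0.30 and 0.25), Lyve1 (0.20, 0.21 and 0.14) and Sox17 (0.32, 0.41 and 0.36) were lost. Over all genes 4883, 4589 and 4925 were called higher in these fits, against 5262 with every sample. Lyve1 (0.28) and Sox17 (0.35) were also lost without KO sample 1, and Sox17 (0.41) without WT sample 2. With the presence of Y-linked RNA as a covariate, 4 of 10 were called in DIS3 total liver (Kdr, Flt4, Tek and Stab1). The log2 changes were 0.14 to 0.64 over the 10 genes. In that fit 2650 of 17553 genes were called higher, against 4659 without the covariate. WT sample 3 was the only WT sample without Y-linked RNA, and no KO sample held it. On the WT side the adjusted difference therefore rests on sample 3 alone. Kdr, Flt4 and Stab1 were called in both lines in every one of these fits.

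The markers of other liver cells also changed, some in the direction of these genes and some against it. Of 14 hepatocyte markers, all 13 that could be tested rose in each line (median log2 1.09 in DIS3 and 0.82 in EXOSC10), and their summed CPM went from 54104 to 61098 in DIS3 WT to 120510 to 125110 in KO and from 36639 to 46326 in EXOSC10 WT to 64715 to 87607 in KO. Of 12 stellate and mesenchymal markers 8 and 11 rose (medians 0.62 and 0.91), and summed CPM went from 969.6 to 1155 to 1547 to 1784 in DIS3 and from 1039.5 to 1379 to 2367 to 2878 in EXOSC10. All 12 erythroid markers fell in each line (medians -1.11 and -1.21), with summed CPM from 15885 to 18363 to 7020 to 9373 and from 11323 to 12174 to 4328 to 5903. Of 12 macrophage markers 10 fell and 2, Marco and Vcam1, rose in each line (medians -1.43 and -1.26), with summed CPM from 696 to 810.3 to 567 to 600.1 and from 563 to 768 to 457 to 524. Of 8 megakaryocyte markers 1 rose and 3 fell in DIS3 (384 to 487 CPM in WT and 426 to 506 in KO), and 7 rose in EXOSC10 (505 to 591 and 664 to 884). Of 10 stem and progenitor markers 3 rose and 5 fell in each line (330.1 to 413 CPM in WT and 264 to 276 in KO for DIS3, 385 to 403 and 307 to 330.1 for EXOSC10). No marker was at 0 in total liver except Tdo2 in EXOSC10 WT. The part of these shifts in the result was not tested.

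Scaled to the hepatocyte or stellate markers, none of the 10 genes was called higher. When the counts were scaled so that the sum of the hepatocyte list stayed level, which shifts the median of all genes to -1.07 and -0.92, no member rose, 9 fell with DIS3 and 6 fell with EXOSC10, where 13305 of 17553 and 12056 of 16771 genes fell. When the sum of the stellate list was held level, in which Reln made up a mean of 555 CPM in DIS3 WT and 718 in EXOSC10 WT (median of all genes -0.61 and -1.18), no member rose in either line, 1 fell in DIS3 and 9 fell in EXOSC10, where 9877 and 13807 of all genes fell. Kdr, for example, changed by -0.51 and -0.33 under the first scaling and by -0.05 and -0.59 under the second. The members lay above the median of all genes under both scalings, as in the main fit, except Cdh5 in the EXOSC10 line (-0.98 and -1.23). A scaling moves all genes of a comparison by about the same amount. Their place around the median was therefore set by the main fit and is no further test.

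**Figure D2:**
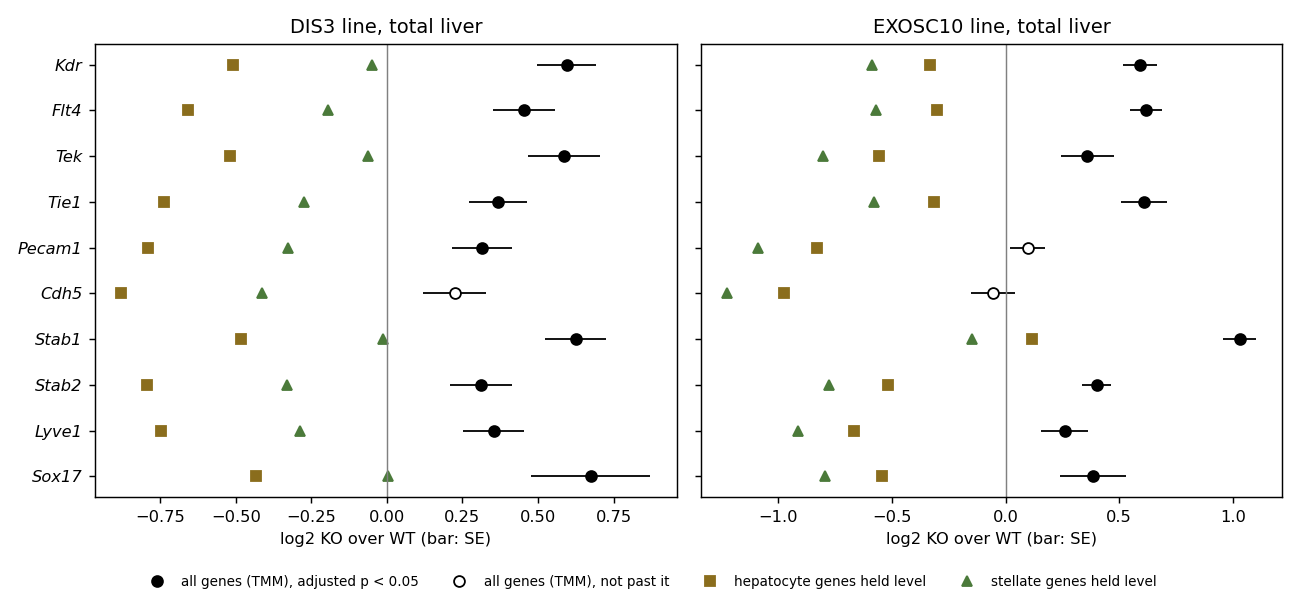
Log2 KO over WT (x axis) of the 10 genes in total liver of the DIS3 and EXOSC10 lines, as circles with SE when scaled on all genes (filled where adjusted p is under 0.05), squares when hepatocyte markers are held level and triangles when stellate markers are held level. The circles lie above 0 except Cdh5 in the EXOSC10 line, and the squares and triangles lie below 0 except Stab1 under the hepatocyte scaling in the EXOSC10 line and Sox17 at about 0 under the stellate scaling in the DIS3 line.

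Other endothelial and vessel genes gave a mixed picture around the same median. Of 70 related genes, 36 of 69 tested rose and 6 fell in the DIS3 line (median log2 0.38), and 43 of 68 rose and 8 fell with EXOSC10 (median 0.38). Over all genes 26.5% and 31.4% rose, and the DIS3 counts of the ligands (2 of 7) and of the Notch pathway (2 of 8) are near that share. Of 7 ligands, 2 rose in DIS3 and 4 of the 6 tested in EXOSC10: Vegfa, the ligand of KDR, rose from 37.3 to 74.0 mean CPM and from 35.4 to 69.3, and Vegfc, the ligand of FLT4, from 2.83 to 4.67 and from 2.53 to 4.69. Angpt1, the activating ligand of TEK, rose in the EXOSC10 line (log2 0.48, SE 0.08). Of 10 other receptors 6 and 7 rose, among them S1pr1, a sphingosine-1-phosphate receptor (1.07 and 0.65), Nrp2, a co-receptor for VEGF-C (0.86 and 0.81), Flt1, a VEGF receptor (0.86 in DIS3), and Ptprb, the phosphatase that acts on TEK (0.68 in EXOSC10).

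Of 18 junction, adhesion and surface genes 12 rose and 1, Cd34, fell in each line. Cd34, also a marker of blood progenitors, went from 31.0 to 16.9 mean CPM in DIS3 and from 28.2 to 13.7 in EXOSC10. The largest rises were Podxl (log2 1.26) and Jam2 (1.06) in DIS3, and Mmrn2 (0.83) and Vwf (0.76) in EXOSC10. Of 13 transcription factors 6 and 7 rose and 2 fell in each line. Mecom rose in both (1.34 and 1.18) and Prox1, which hepatocytes also use, rose in DIS3 (59.2 to 136 mean CPM), while Lmo2 (-1.07 and -1.12) and Tal1 (-1.02 in EXOSC10), both also used by erythroid cells, fell. In the Notch pathway 2 of 8 rose and 1 fell in DIS3 and 6 rose and 2 fell in EXOSC10: the ligands Dll4 (0.81 in DIS3), Jag1 (0.43 and 0.80) and Jag2 (0.91 in EXOSC10) rose, and the target gene Hey2 fell (-1.03 and -0.86). Hey2 was near 1 CPM in WT, and its DIS3 call was lost when any 1 of 4 samples was left out (log2 -1.11 to -0.79). The DIS3 call of Jag1 was lost without KO sample 1-3 (0.26), and the DIS3 calls of Vegfc, Hey2 and Jag1 were lost with Y-linked RNA as a covariate.

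Of 14 sinusoidal genes 13 were tested, and 8 rose and 2 fell in DIS3 and 7 rose and 3 fell in EXOSC10. Clec4g, a lectin of sinusoidal endothelium, went from 5.22 to 10.1 mean CPM in DIS3 and from 2.94 to 6.32 in EXOSC10. Rspo3, a Wnt amplifier of central vein endothelium, rose by 0.90 and 1.47 on the log2 scale. Fcna, a ficolin that macrophages also make, fell from 45.2 to 14.9 and from 30.6 to 9.83 mean CPM. Held level to hepatocyte markers, the rises of Clec4g and Rspo3 in DIS3 turned to -0.15 and -0.20, and in EXOSC10 they were 0.15 and 0.54, of which the Rspo3 value still passed the threshold.

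In WT the members were mostly genes of total liver and not of the sorted cells. All 10 differed among the 6 WT populations in each line (edgeR quasi-likelihood F test), where 94.8% and 94.2% of all genes did. Total liver exceeded S0 for 8 of 10 in each line (36.4% and 36.6% of all genes were higher, and 39.2% and 33.7% lower). Cdh5 in S0 stood at 2.02% and 4.14% of its total liver CPM, Stab2 at 1.94% and 4.12%, and Lyve1 at 1.36% and 3.00%. Kdr, Flt4, Stab1 and Sox17 lay between 2.65% and 12.3%. Tek, Tie1 and Pecam1 stood apart: Tek in S0 held 40.3% and 69.7% of its total liver level, Tie1 96.9% and 138%, and Pecam1 161% and 147%. Pecam1 was higher in S0 than in total liver in both lines (log2 total minus S0 -0.68 and -0.56), and Tie1 in the EXOSC10 line (-0.48, adjusted p 0.009, lost without WT total sample 3-4 at -0.38 or WT S0 sample 2-3 at -0.40). The EXOSC10 call of Tek, higher in total liver, was lost without WT total sample 2 (0.37) or WT S0 sample 1 (0.33).

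From S0 to S1 10 of 10 fell with DIS3 and 9 of 10 with EXOSC10 (S0 was the higher for 32.1% and 29.1% of all genes). Without DIS3 WT S1 sample 1-3 the calls of Lyve1 (2.71) and Sox17 (5.11) were lost. In S1, S2 and S3 the members stood at between 0% and 16.5% of total liver, and Sox17 had no count in S2 of either line. S4+S5 exceeded S3 for 9 and 7 of 10 (32.8% and 28.9% of all genes), with Lyve1 in DIS3 lost without WT S3 sample 1-3 (-1.55) or WT S4+S5 sample 2 (-1.04) and Tek in EXOSC10 lost without either S3 sample (-1.32 and -2.22) or WT S4+S5 sample 2-3 (-1.46). There Pecam1 stood at 50.4% and 38.6% of total liver, Stab1 at 30.7% and 19.1%, Tie1 at 27.7% and 15.2%, Cdh5 at 18.7% and 17.5%, and Kdr at 15.2% and 19.8%. Macrophage markers in S4+S5 WT summed to 269 to 374 CPM in DIS3 and 267 to 286 in EXOSC10, against 20.5 to 34.4 over the S3 WT samples of both lines, and their part in these levels was not tested. As a check of the sort, summed erythroid markers in WT went from 175 to 197 CPM in S0 to 51403 to 56499 in S4+S5 of the DIS3 line.

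**Figure D3:**
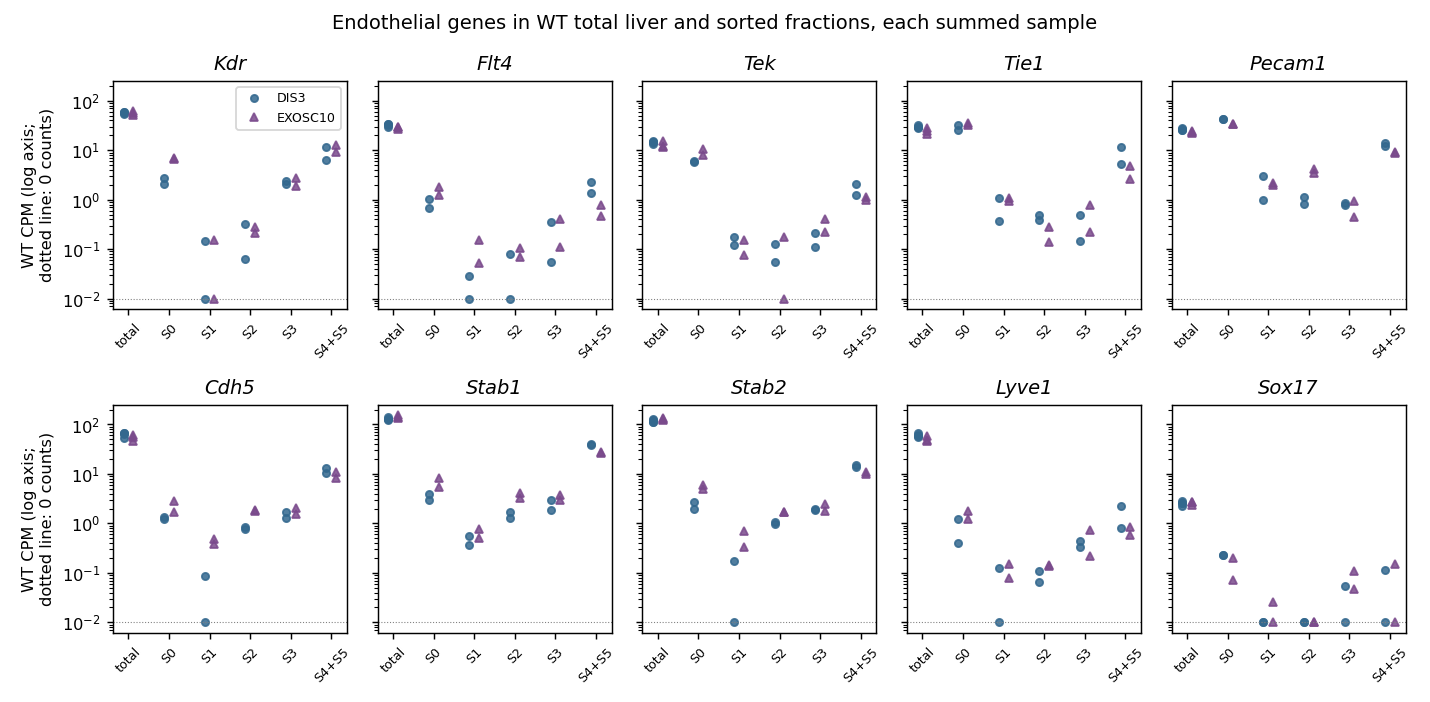
CPM of the 10 genes (log axis, with points on the dotted line for samples without a count) in WT total liver and the 5 sorted fractions, 1 point per summed sample, circles for the DIS3 line and triangles for the EXOSC10 line. Tie1 and Pecam1 stay near or above their total liver level in S0, Tek holds 40.3% and 69.7% of it, the others drop further, and the mean of each gene is lowest in S1, S2 or S3.

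In S0, where the least mature cells are sorted, both angiopoietin receptors were higher in KO than in WT. Of 9 members tested in each line, Tek and Tie1 rose in both (18.0% of all genes rose in DIS3 S0 and 8.84% in EXOSC10 S0, where 4.63% fell), and Pecam1 and Stab2 fell in the DIS3 line (13.0% of all genes fell). Tek stood at 7.25 and 7.40 CPM in DIS3 WT and 18.1 and 14.5 in KO, a 2.24-fold rise (log2 1.17, SE 0.20, adjusted p 0.00107), and at 8.93 and 11.7 in EXOSC10 WT and 24.0 and 21.6 in KO, a 2.16-fold rise (1.11, SE 0.19, adjusted p 0.00734). Tie1 stood at 41.0 and 31.7 CPM in DIS3 WT and 82.1 and 96.2 in KO (2.44-fold, adjusted p 4.42e-05), and at 36.5 and 39.6 in EXOSC10 WT and 91.0 and 88.7 in KO (2.35-fold, adjusted p 0.000319). No WT and KO samples overlapped for either gene. Of the related genes 27 of 51 tested rose and 7 fell in DIS3 S0, among them 12 of 15 junction, adhesion and surface genes that rose, and 20 of 57 rose and 3 fell in EXOSC10 S0.

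Pecam1 in S0 fell from 53.0 and 53.6 CPM to 36.1 and 33.7 in the DIS3 line (log2 -0.60, SE 0.11, adjusted p 0.00159) and went from 39.1 and 38.3 to 27.5 and 31.8 in the EXOSC10 line without passing (-0.38, adjusted p 0.0878). Stab2 fell from 3.36 and 2.43 CPM to 0.822 and 0.495 in the DIS3 line (-2.05, SE 0.50, adjusted p 0.0102), a call that was lost without WT sample 1-3 (-1.87, adjusted p 0.195). Its EXOSC10 samples went from 5.49 and 6.57 to 3.39 and 4.11 without passing (-0.68, adjusted p 0.146). Scaled to library totals instead of TMM, 2 members in place of 4 were called in DIS3 S0. Over all 16616 genes, 2116 rose and 439 fell in that fit, against 2991 and 2164 with TMM.

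Other markers also moved in S0. Of 11 erythroid markers tested 8 rose in DIS3 (175 to 197 CPM in WT and 303 to 345 in KO), and 4 rose and 1 fell in EXOSC10 (319.8 to 391 and 358 to 500.1). Of the stellate and mesenchymal markers 2 of 5 rose and 1 fell in DIS3 (34.8 to 37.9 CPM in WT and 37.6 to 41.6 in KO), and 5 of 6 rose and 1 fell in EXOSC10 (31.4 to 36.6 and 44.1 to 74.9). Of 8 megakaryocyte markers 4 rose in each line, with summed CPM of 133 to 156 in DIS3 WT and 189.8 to 233 in KO, and 195 to 211 in EXOSC10 WT and 226 to 403 in KO. Of 10 stem and progenitor markers 6 rose and 1 fell in DIS3 (1734 to 1751 CPM in WT and 1989.5 to 2094 in KO), and 5 rose and 3 fell in EXOSC10 (1595 to 1679 and 1534 to 1594). Macrophage markers fell from 164 to 177 CPM to 17.2 to 22.7 in DIS3, with C1qa, Spic, Vcam1 and Vsig4 at 0 in KO, and summed to 61.9 to 87.3 in WT and 18.7 to 38.1 in KO in EXOSC10. Their part in the result was not tested. In EXOSC10 S0 8 of 10 hepatocyte markers rose, and KO sample 2-3 stood apart, with hepatocyte markers summing to 1091 CPM against 73.7 in the other KO sample and 29.0 to 39.3 in WT. Without it Tek (log2 1.19) and Tie1 (1.26) were called as before.

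In the later fractions Tek stood higher in KO than in WT in every comparison while several other members had too few counts to test. Its counts summed over the samples of a group went from 7 in WT to 68 in KO in DIS3 S1 and from 5 to 54 in EXOSC10 S1, from 4 to 57 and from 5 to 20 in S2, from 5 to 54 and from 11 to 38 in S3, and from 24 to 152 and from 30 to 153 in S4+S5. In S1 this was 0.142 and 0.201 CPM in DIS3 WT against 1.68 and 1.94 in KO, and 0.0768 and 0.157 in EXOSC10 WT against 1.46 and 1.66 in KO. In none of these 8 comparisons did a WT sample reach a KO sample. The log2 changes were 3.21 and 3.93 in S1, 3.88 and 2.91 in S2, 3.60 and 2.06 in S3, and 2.61 and 2.65 in S4+S5, each past an adjusted p of 0.05. In S1 to S3 Tek had 4 to 11 counts in WT. There and in DIS3 S4+S5 it passed the filter on low counts through the KO samples where it was high. Its entry into the test in these comparisons therefore already depended on that difference. Calls were lost without DIS3 WT S2 sample 1-3 (3.16), without any 1 of the 4 EXOSC10 S2 samples (2.31 to 6.47), and without EXOSC10 WT sample 1 or 2-3 in S3 (1.84 and 2.66) and in S4+S5 (2.55 and 2.70).

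Cdh5 and Stab2 went the other way. Stab2 in S4+S5 fell in the DIS3 line from 8.78 and 9.27 CPM to 0.898 and 0.873 (log2 -3.32, SE 0.42, adjusted p 2.78e-06), and in S3 from 61 to 4 counts (-3.60, SE 0.60, adjusted p 0.0006). With EXOSC10 it fell in S2 from 73 to 3 counts (-3.59, lost without WT sample 2-3 at -3.54) and in S3 from 69 to 12 counts (-2.21, lost without WT sample 2-3 at -1.97). Cdh5 in S4+S5 fell in the DIS3 line from 8.34 and 6.39 CPM to 1.07 and 0.582 (-3.03, SE 0.46, adjusted p 2.14e-05), in DIS3 S3 from 46 to 7 counts (-2.45, lost without WT sample 2 at -2.25 or KO sample 1-3 at -2.48) and in DIS3 S2 from 43 to 2 counts (-3.88, lost without WT sample 2 at -3.89 or KO sample 1-3 at -2.88). In EXOSC10 S3 it fell from 52 to 3 counts (-3.78, SE 0.64, adjusted p 0.000569), and in EXOSC10 S1, untested, it had 24 counts in WT and 0 in KO. In S2, S3 and DIS3 S4+S5 both genes passed the filter on low counts through the WT samples where they were high. Their entry into the test therefore already depended on that difference.

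The KO samples of EXOSC10 S4+S5 were uneven: KO sample 1 had no count of Cdh5, Stab2 or Lyve1, and KO sample 2-3 had 1.41, 3.56 and 2.42 CPM, beside 5.37 to 6.82, 6.24 to 6.95 and 0.374 to 0.536 in WT. Cdh5 (log2 -2.79, adjusted p 0.0984) and Stab2 (-1.68, adjusted p 0.333) did not pass there. Samples of EXOSC10 S4+S5 were also left out 1 at a time, the lone sample of a group being taken to vary like the others. The log2 change then ranged from -9.73 to -2.13 for Cdh5, from -9.85 to -0.92 for Stab2 and from -6.00 to 2.38 for Lyve1. The number of members called changed between these fits, and so did the number called over all genes.

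Pecam1 fell in S1 from 1.13 to 3.46 CPM to 0.516 and 0.871 in DIS3 (log2 -1.99, lost without WT sample 1-3 at -0.77) and from 2.00 to 2.20 CPM to 0 and 0.487 in EXOSC10 (-2.61, SE 0.57, adjusted p 0.00127). It fell in EXOSC10 S2 from 3.75 and 4.38 CPM to 0.537 and 0.661 (-2.74, SE 0.37, adjusted p 0.00192). Pecam1 passed the filter on low counts in these fractions through the WT samples where it was high. Its entry into the test therefore already depended on that difference. Stab1 fell in DIS3 S4+S5 from 24.6 and 25.3 CPM to 5.56 and 15.6 (-1.33, lost without KO sample 1-3 at -0.68) and in EXOSC10 S2 (-1.60, lost without WT sample 2-3 at -1.44). Tie1 fell in DIS3 S4+S5 from 3.26 and 7.01 CPM to 0.728 and 1.52 (-2.03, lost without WT sample 2 at -1.46), and Kdr rose in EXOSC10 S3 from 1.45 and 2.06 CPM to 2.99 and 3.89 (0.92, lost without WT sample 1 at 0.75 or KO sample 2-3 at 0.71). Stab1 in EXOSC10 S2 and Tie1 in DIS3 S4+S5 likewise entered the test through their higher WT samples. Flt4, Lyve1 and Sox17 passed in no sorted comparison, and Sox17 was tested in none.

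Counted over the members, 1 of 2 tested rose and 1 fell in DIS3 S1 (20.6% of all genes rose and 19.4% fell), and 1 of 4 rose and 1 fell in EXOSC10 S1 (15.2% and 15.5%). In S2 1 of 5 rose and 1 fell in DIS3 (10.3% and 4.8%) and 1 of 5 rose and 3 fell in EXOSC10 (11.6% and 9.86%). In S3 1 of 6 rose and 2 fell in DIS3 (16.3% and 15.9%) and 2 of 6 rose and 2 fell in EXOSC10 (16.8% and 17.2%). In S4+S5 1 of 8 rose and 4 fell in DIS3 (23.4% and 23.7%) and 1 of 9 rose and none fell in EXOSC10 (7.63% and 7.52%). Genes that were tested had passed a filter on low counts, so these are not counts over all 10.

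Macrophage markers and part of the stem and progenitor markers fell in these fractions alongside Cdh5, Stab2 and Pecam1. In S4+S5 11 of 11 tested fell in DIS3 (269 to 374 CPM in WT and 22.4 to 39.4 in KO) and 9 of 11 in EXOSC10 (267 to 286 and 34.8 to 61.2). In S3 8 of 9 and 9 of 10 fell, in S2 8 of 10 and 9 of 10, and in S1 3 of 4 and 4 of 5. Of the stem and progenitor markers 6 of 8 fell in S1 of each line, 3 of 7 and 4 of 7 in S2, 2 of 5 in S3 of each line, and 5 of 9 and 4 of 9 in S4+S5, where Cd34 changed by -2.89 and -2.08 and Kit by -2.50 in DIS3. Of the stellate and mesenchymal markers Reln rose in S1, S2, S3 and S4+S5 of both lines, and in S3 it made up most of that list's sum, at 492 mean CPM in DIS3 KO S3 and 537 in EXOSC10 KO S3. Megakaryocyte markers summed to 39.5 to 89.5 CPM in DIS3 WT S4+S5 and 131 to 147 in KO, and to 45.1 to 46.1 and 105 to 116 in EXOSC10. In EXOSC10 S2 9 of 11 hepatocyte markers rose (14.0 to 16.5 CPM in WT and 132 to 136 in KO). The part of these shifts in the members' changes was not tested.

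**Figure D4:**
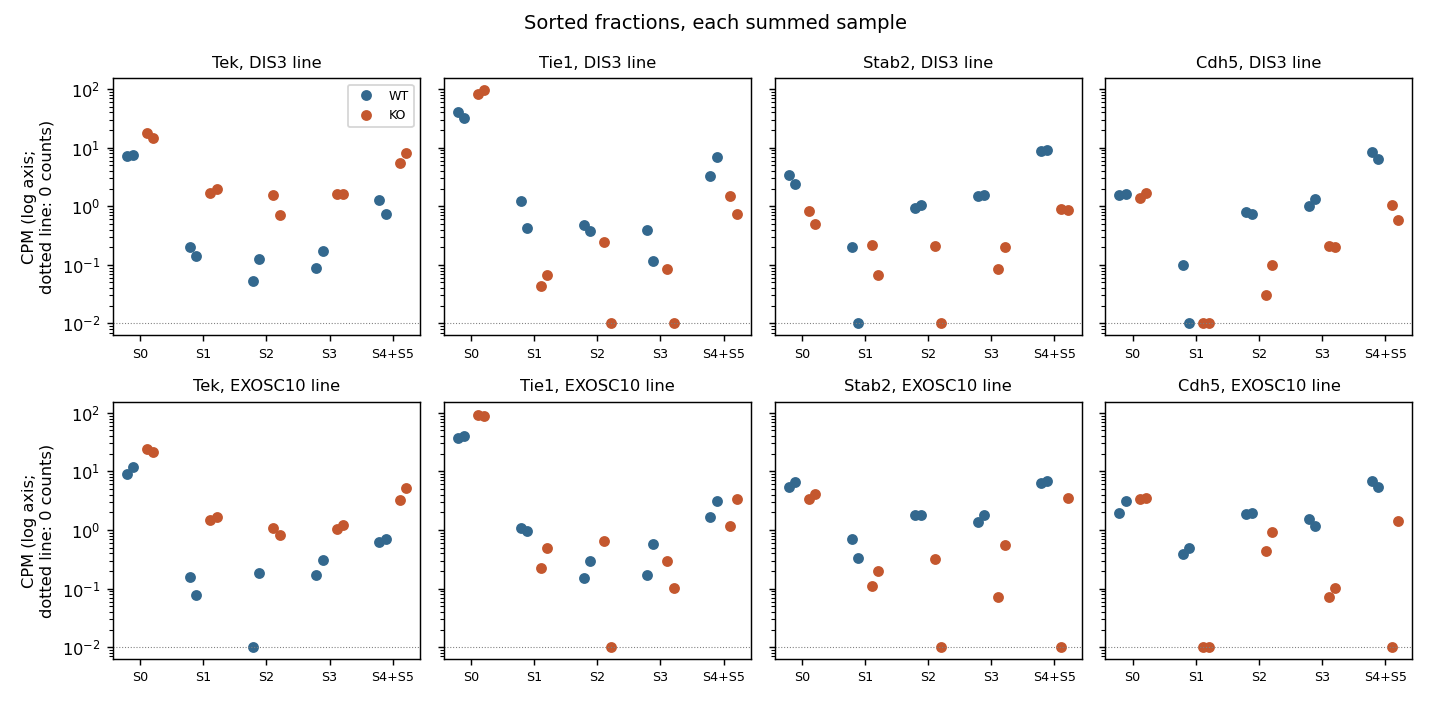
CPM (log axis, with points on the dotted line for samples without a count) of Tek, Tie1, Stab2 and Cdh5 in the 5 sorted fractions of each line, 1 point per summed sample of WT (blue) and KO (orange). Tek is higher in KO in every fraction and Tie1 in S0, while Stab2 and Cdh5 are lower in KO in S3 in both lines and in S4+S5 of the DIS3 line.

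The effect in S0 differed from that in total liver for some members. The difference itself (log2 change in S0 minus total, edgeR interaction test) was called for 5 of 10 in each line, where 24.8% and 24.5% of all genes were called. Tie1 was raised more in S0 in both lines (0.81, SE 0.17, adjusted p 0.00155, and 0.55, SE 0.16, adjusted p 0.0268). For Stab2 and Pecam1 the KO effect was lower in S0 than in total liver in both lines (Stab2 -2.40 and -1.17, Pecam1 -1.02 and -0.55). For Tek the differences of 0.49 and 0.65 did not pass (adjusted p 0.124 and 0.0512). The EXOSC10 call of Tie1 was lost without KO total sample 2-4 (0.46), and that of Pecam1 in 7 of the 10 fits that left out a sample (-0.48 to -0.35).

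No member was shown to respond differently in the 2 lines. The interaction of line and genotype was called for none of the members tested in any of the 6 populations by edgeR, where 1.02% of all genes were called in total liver, 7.25% in S0, 4.02% in S1, 2.22% in S2, 1.41% in S3 and 7.01% in S4+S5. The smallest adjusted p in total liver was 0.142, for Stab1 (0.40 higher in EXOSC10 than in DIS3 on the log2 scale, SE 0.13). At an unadjusted p under 0.05 there was 1 of 10 members in total liver, 1 of 9 in S0, 1 of 4 in S1, 2 of 5 in S2, 0 of 6 in S3 and 2 of 9 in S4+S5. With DESeq2 size factors in place of TMM the calls were also 0 in each population. In S4+S5, members were called when EXOSC10 KO sample 2-3 was left out, among them Cdh5 (-6.39) and Stab2 (-6.20), of which the remaining KO sample 1 has no count. For Tek in S0 the lines differed by -0.04 (SE 0.27) and for Tie1 by -0.04 (SE 0.18).

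**Figure D5:**
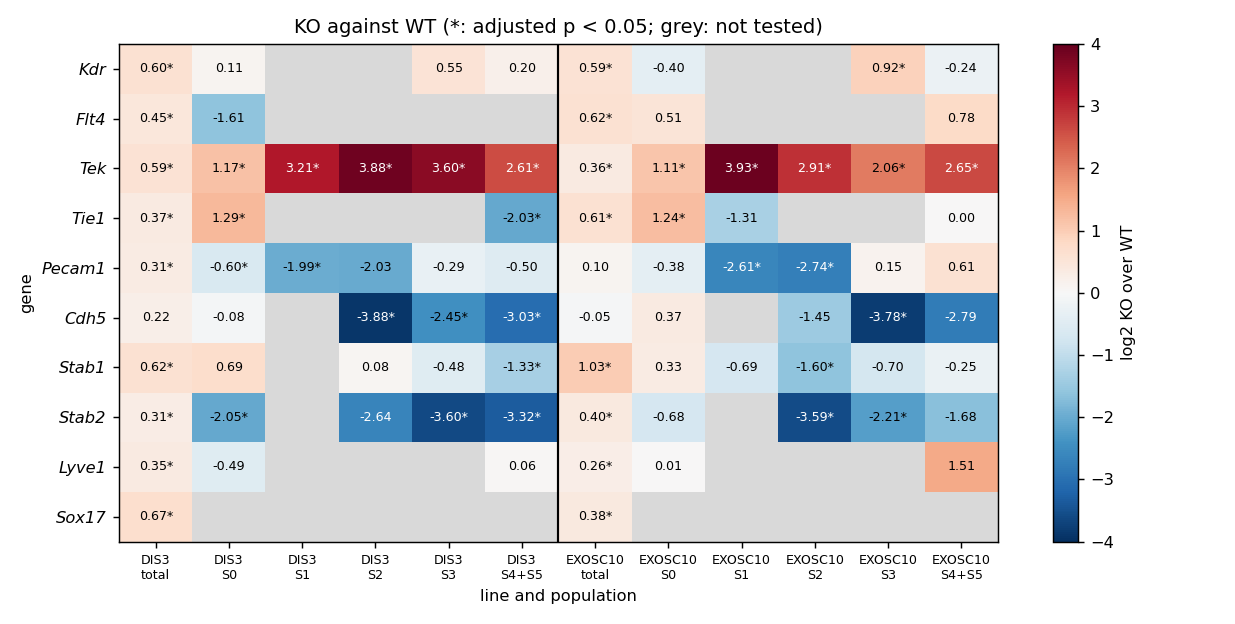
Log2 KO over WT (colour and printed value) of the 10 genes (y axis) in each line and population (x axis), with an asterisk where adjusted p is under 0.05 and grey where a gene was not tested. Tek is called higher in all 12 comparisons, but in S1 to S3 and DIS3 S4+S5 it entered the test through its high KO samples. The other genes are called higher mainly in total liver, and Pecam1, Cdh5 and Stab2 are called lower in several sorted fractions. From S1 on, these lower calls entered the test through high WT samples. In total liver the direction turns when hepatocyte markers are held level, except with EXOSC10 for Stab1, which stays above 0, and Cdh5, which was already below 0.

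As a description, the genes whose log2 CPM followed the mean of the 10 members most closely over all 52 samples were Ndrg1, Selenop and Cavin2 (Pearson r 0.979 each), then Mest, Ptms and Nrp2 (0.974), St6gal1 (0.971), and Fn1, Itm2b and Pls1 (0.97). Over the 12 total liver samples alone they were Asph (0.992), Cdh1 (0.988), Loxl2 (0.987), Adgrl2 (0.986), Slc44a1 (0.985), F5 (0.984), Efnb2 (0.982), Plxnb2 and Sptbn1 (0.981) and Clca3a1 (0.98). The samples share populations and libraries' depth, and over all 52 the difference between total liver and the sorted fractions carries much of each value. Each member followed the mean of the other 9 with r from 0.76 (Tek) to 0.949 (Lyve1) over all samples, and from 0.411 (Cdh5) to 0.968 (Kdr) over total liver.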

How the data were processed

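RNA was sequenced from total fetal liver and 5 sorted fractions with a stranded, ribosomal RNA depleted library kit, per the labels' protocols. The authors deposited raw read counts per gene for each of 76 libraries. The submitters' processing notes name HISAT2 2.1.0, Subread with featureCounts 1.6.4, R 3.5.1, DESeq2 1.20.0 and GRCm38, and the strand setting of the counting is not given in the sources used here.

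Libraries of a group whose counts differed by a chi-square per degree of freedom under 1.5 (genes with at least 20 counts) were summed as 1 sample: 24 of 84 pairs, at 1.077 to 1.327, against 2.798 to 20.293 in the others. Gm26917 and Gm42418, which held 5.264% to 61.418% of counts, were left out of that check, a choice made after seeing the data. Samples were grouped by the line, genotype and population in their labels. Each comparison was fitted across all genes with edgeR 4.0.16 in R 4.3.3 (TMM, filterByExpr, quasi-likelihood test, Benjamini-Hochberg adjusted p under 0.05, SE from the log2 change and its F value). The KO against WT test was also run on simulated counts in the designs of DIS3 total liver, EXOSC10 total liver and DIS3 S0. CPM are deposited counts over TMM-scaled library sizes within a comparison. The other fits used other scalings, filters and sample sets, DESeq2 1.42.0, a replicate block and Y-linked RNA as a covariate.

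The members, the related genes and the marker lists were chosen with earlier results of these data known. Named were the 10 members, up to 3 called genes with the largest change per role of the related list in each total liver comparison, and the 10 genes most correlated with the mean log2 CPM (prior count 2) of the members among genes with a mean of at least 1 CPM. Same-numbered libraries correlated at -0.147 to 0.101, which gives no sign that the numbers pair samples. The numbers still held a pattern across groups. Libraries 1 and 3 were near-identical in every sorted DIS3 group, and libraries 2 and 3 in every sorted EXOSC10 group. Whether the numbers mark a shared preparation was not tested. Sequencing depth was 4662194 to 30412636 counts per library, and low counts in sorted fractions limit precision there.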

Additional observations from a re-analysis of the deposited data

Results flagged for a closer look

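Cdh5 in DIS3 WT total liver replicate 4 stood at 63.4 CPM, apart from 77.8 to 80.8 in the other 3 samples by Dixon's criterion, which chance meets in about 1 in 20 groups. That library was also the shallowest, at 4662194 counts. The 10 members were tested in this group, the one group of at least 4 samples, and 1 stood out.

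The KO effect differed between S0 and total liver, by the test of the difference itself (edgeR interaction, S0 minus total on the log2 scale), for 5 members in each line. In the DIS3 line the differences were -3.05 for Sox17, 0.81 for Tie1, -2.40 for Stab2, -1.95 for Flt4 and -1.02 for Pecam1. In the EXOSC10 line they were 0.55 for Tie1, -1.15 for Kdr, -1.17 for Stab2, -0.55 for Pecam1 and -0.70 for Stab1. The DIS3 values of Sox17 rest on 11 counts in WT S0 and 2 in KO S0, and its call was lost without either WT S0 sample (-2.99 and -3.05). The call of Flt4 was lost without DIS3 WT S0 sample 2 (-1.62), that of Kdr without EXOSC10 WT S0 sample 2-3 (-1.10), that of Tie1 in the EXOSC10 line without KO total sample 2-4 (0.46), and those of Pecam1 (-0.48 to -0.35) and Stab1 (-0.68 to -0.37) in the EXOSC10 line each in 7 of 10 fits that left out a sample. Sex and genotype cannot be told apart in DIS3 S0.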

How the results depend on the processing

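Holding the summed hepatocyte or stellate markers level turned the direction of most members in total liver, except Stab1 with EXOSC10 under the hepatocyte scaling, Sox17 with DIS3 under the stellate scaling (about 0) and Cdh5 with EXOSC10, which was negative before. In the DIS3 line members called higher went from 9 to 0 under both scalings and members called lower from 0 to 9 and 1. In the EXOSC10 line members called higher went from 8 to 0 under both and members called lower from 0 to 6 and 9. These scalings shift the median of all genes by construction. With hepatocyte markers held level, the log2 changes in DIS3 total liver that turned negative were Kdr -0.51, Flt4 -0.66, Tek -0.52, Tie1 -0.74, Pecam1 -0.79, Cdh5 -0.88, Stab1 -0.48, Stab2 -0.79, Lyve1 -0.75, Sox17 -0.43, Vegfa -0.10, Vegfc -0.38, S1pr1 -0.029, Nrp2 -0.24, Flt1 -0.25, Jam2 -0.048, Dll4 -0.30, Jag1 -0.68, Clec4g -0.15 and Rspo3 -0.20. With stellate markers held level, the log2 changes in DIS3 total liver that turned negative were Kdr -0.048, Flt4 -0.19, Tek -0.064, Tie1 -0.27, Pecam1 -0.33, Cdh5 -0.41, Stab1 -0.014, Stab2 -0.33, Lyve1 -0.29 and Jag1 -0.22. With hepatocyte markers held level, the log2 changes in EXOSC10 total liver that turned negative were Kdr -0.33, Flt4 -0.30, Tek -0.56, Tie1 -0.32, Pecam1 -0.83, Stab2 -0.52, Lyve1 -0.67, Sox17 -0.54, Vegfc -0.051, S1pr1 -0.28, Nrp2 -0.10, Jag1 -0.13, Angpt1 -0.44, Ptprb -0.23, Mmrn2 -0.10, Vwf -0.16 and Jag2 -0.016. With stellate markers held level, the log2 changes in EXOSC10 total liver that turned negative were Kdr -0.59, Flt4 -0.57, Tek -0.80, Tie1 -0.58, Pecam1 -1.09, Stab1 -0.15, Stab2 -0.78, Lyve1 -0.92, Sox17 -0.79, Vegfa -0.22, Vegfc -0.30, S1pr1 -0.54, Nrp2 -0.36, Mecom -0.0045, Jag1 -0.38, Clec4g -0.093, Angpt1 -0.70, Ptprb -0.49, Mmrn2 -0.34, Vwf -0.43 and Jag2 -0.27.

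Of all genes called, 62.6% were higher in DIS3 total liver with library totals and 65.9% with 1 fit of the whole line, against 52.4% with TMM, and 61.5% with 1 fit of the whole line in the EXOSC10 line against 50.3%. With Y-linked RNA as a covariate members called higher in DIS3 total liver went from 9 to 4, and all genes called higher went from 4659 to 2650. Scaling to library totals gave 2 in place of 4 members in DIS3 S0 and 0 in place of 1 in EXOSC10 S4+S5. Over all genes, 2116 rose and 439 fell in that DIS3 S0 fit, against 2991 and 2164 in the main fit. In EXOSC10 S4+S5 319 rose and 501 fell, against 1080 and 1064. The DESeq2 Wald test gave 1 member in place of 2 in DIS3 S2, 2 in place of 4 in EXOSC10 S3 and 2 in place of 1 in EXOSC10 S4+S5. Over all genes, 1378 rose and 699 fell in that DIS3 S2 fit, against 1445 and 673 in the main fit. In EXOSC10 S3 1377 rose and 1509 fell, against 2150 and 2202. In EXOSC10 S4+S5 1209 rose and 1275 fell, against 1080 and 1064. Without a filter on low counts there were 4 members in place of 2 in DIS3 S1 and S2 and 3 in place of 1 in EXOSC10 S4+S5. With 1 fit of the whole line there were 4, 4 and 5. Over all genes, 2936 rose and 2761 fell in the main fit of DIS3 S1. There 3171 and 2946 did without the filter, and 2035 and 1762 in the whole-line fit. The counts were 1860 and 1313, and 2277 and 1771, in DIS3 S2. In EXOSC10 S4+S5 they were 1442 and 2051, and 2393 and 5053. Counting every library as its own sample gave 1 member in place of 3 in DIS3 S3, 4 in place of 2 in EXOSC10 S0 and 3 in place of 1 in EXOSC10 S4+S5. Over all genes, 2687 rose and 2685 fell in that DIS3 S3 fit, against 2122 and 2070 in the main fit. In EXOSC10 S0 2933 rose and 2703 fell, against 1393 and 729. In EXOSC10 S4+S5 2566 rose and 2575 fell, against 1080 and 1064. For the difference between lines 1, 1 and 3 members were called in place of 0 in total liver, S0 and S4+S5. A replicate block was also fitted, although the correlations of same-numbered libraries gave no sign of pairing. Over every library the members called were then 10 in DIS3 total liver, 8 in EXOSC10 total liver, 1 in DIS3 S3 and 4 in EXOSC10 S0. Over all genes, in the same order, 5038, 5443, 2702 and 2400 rose and 4810, 5397, 2730 and 1978 fell. In EXOSC10 S4+S5 2 members were called over every library or the summed samples. There 2138 and 1178 of all genes rose, and 2183 and 1331 fell. The causes were not tested.

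Leaving out 1 sample at a time, the lone sample of a group being taken to vary like the others, gave 5 to 9 members called higher in DIS3 total liver and 5 to 8 in EXOSC10 total liver. In the sorted fractions the calls were 3 to 5, 1 to 3, 0 to 4, 2 to 3 and 4 to 5 from S0 to S4+S5 in DIS3, and 2 to 3, 2 to 3, 1 to 4, 2 to 4 and 0 to 6 in EXOSC10. For the difference between lines they were 0 in total liver, S0, S1 and S3, 0 to 1 in S2 and 0 to 3 in S4+S5, and for S0 against total liver 4 to 7 in DIS3 and 3 to 7 in EXOSC10. Of values called with or without the left-out sample, those that changed sign were the difference between lines in S4+S5 for Cdh5 (range -6.39 to 0.88) and Stab2 (-6.20 to 2.39), both lowest without EXOSC10 KO sample 2-3, the EXOSC10 difference of S0 and total liver for Flt4 (-1.06 without KO S0 sample 2-3 to 0.48 without KO S0 sample 1), and WT S1 minus S2 for Pecam1 in DIS3 (-0.047 without WT S1 sample 1-3 to 1.56 without WT S2 sample 1-3). Values not called changed sign more often, among them Kdr (-0.56 to 0.62) and Lyve1 (-1.07 to 0.50) in DIS3 S0, Stab1 in DIS3 S3 (-3.19 to 0.11), Cdh5 in EXOSC10 total liver (-0.15 to 0.03) and Lyve1 in EXOSC10 S4+S5 (-6.00 to 2.38). Counting EXOSC10 WT total libraries 3 and 4 as 2 samples, added after seeing the data, changed no call. In S1 to S3 4 to 8 of the 10 members had too few counts for a test, so differences there were not detectable at this depth.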
